A study of Mus musculus with 16 samples.

Results

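Gata4, Gata6, Sox7, Sox17, Foxa2, Pdgfra, Dab2 and Lama1 are regulators and markers of primitive endoderm and of the extraembryonic endoderm that forms from it. They were chosen by name, as 8 of the 26127 genes in the deposited expression table, and with earlier results of these data known. Total RNA of mouse embryonic stem cells (ESCs) was sequenced in 16 libraries after removal of ribosomal RNA. The libraries fell into 8 wild type (WT) libraries, 4 libraries of cells without Dnmt1 (Dnmt1 KO) and 4 libraries of cells without Dicer and Dnmt1 (Dicer/Dnmt1 KO). The labels gave the strain of every library as E14, while the methods named a C57BL/6 parent with loxP sites in both copies of Dnmt1. In those methods Dnmt1 was deleted by Cre after 4-hydroxytamoxifen, the Dicer mutants came from CRISPR/Cas9 targeting of that parent, and ESCs grew in serum and LIF with or without feeder cells. Which clones the libraries came from, whether a library had feeder cells, the days after deletion and the meaning of the letters A and B in the library names were not given. Nothing stated that the libraries of a group were separate cultures, so that each p-value measures the spread between these libraries, which may be technical.

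Primitive endoderm is the layer that separates from the pluripotent epiblast in the blastocyst and later forms the visceral and the parietal endoderm of the yolk sacs. FGF4 made by epiblast precursors acts through FGF receptors and ERK to favour GATA6 over NANOG in neighbouring cells, and SOX17, GATA4 and SOX7 follow GATA6. PDGFRA, DAB2 and laminin mark the committed cells, and ESC cultures in serum can hold a small fraction of cells with this program. In RNA from bulk cultures, fewer cells of a type and less RNA per cell cannot be told apart.

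Promoter windows of RefSeq in the mouse build GRCm38.p6 were matched by symbol for 3 of the 8 genes, Foxa2, Pdgfra and Dab2. The sequences are the 250 bases before the outermost start of Foxa2 (chr2:148046970-148047219, minus strand) and before the start of Pdgfra (chr5:75152001-75152250, plus strand). They are shown because these were the genes with a window that were called higher in both knockouts, and they are printed in lower case on the strand of the gene.
Foxa2: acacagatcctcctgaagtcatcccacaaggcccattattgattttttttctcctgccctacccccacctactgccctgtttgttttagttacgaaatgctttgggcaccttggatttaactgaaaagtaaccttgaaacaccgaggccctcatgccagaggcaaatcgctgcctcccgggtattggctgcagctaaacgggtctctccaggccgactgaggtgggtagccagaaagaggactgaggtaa
Pdgfra: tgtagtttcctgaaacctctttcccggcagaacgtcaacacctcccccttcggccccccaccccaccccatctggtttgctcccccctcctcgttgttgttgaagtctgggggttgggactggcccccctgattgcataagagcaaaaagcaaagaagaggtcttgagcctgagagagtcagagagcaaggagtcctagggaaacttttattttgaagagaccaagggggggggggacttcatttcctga

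The windows were searched on both strands for GATA letters (AGATAA or AGATAG, each also with T in place of the first A) and for SOX letters (ACAAAG or the shorter ACAAT). Neither motif stood in the Pdgfra window or in the outermost Foxa2 window. Another Foxa2 window, before the innermost of its 3 annotated starts, held 1 match to each, and the outermost of 2 Dab2 windows held 1 GATA match, with the match in capitals below.
Foxa2, GATA letters, chr2:148045632-148045657: gttagccttgAGATAAtattaacttt
Foxa2, SOX letters on the opposite strand, chr2:148045620-148045645: ataatattaaCTTTGTgatcaaatat
Dab2, GATA letters, chr15:6299600-6299625: atttttcttcTGATAAcaggaatagg
Of 32851 promoter windows of this length searched, 26.5% held a GATA match and 38.8% a SOX match. The Pdgfra window held 4 CpG sites and the 3 Foxa2 windows 6, 20 and 13 from the outermost to the innermost, beside a median of 6 over all windows. The 2 Dab2 windows held 2 and 17. A match is a match of letters only, and no binding was measured.

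The targeted genes were read first. Dnmt1, which encodes the maintenance DNA methyltransferase, was at 18.04 to 24.8 RPM (reads per 1 M reads of the library) in Dnmt1 KO and at 22.5 to 24.96 RPM in Dicer/Dnmt1 KO. In WT numbers 1 to 3 it was at 169 to 203 RPM, but in the libraries labelled WT 4A and WT 4B at 51.5 and 46.9 RPM. Dicer1, which encodes the RNase that makes microRNAs, was at 12.8 to 16.6 RPM in Dicer/Dnmt1 KO, at 39.0 to 51.2 RPM in Dnmt1 KO and at 23.6 to 51.4 RPM in WT. The libraries labelled WT 4A and WT 4B were also the lowest of WT for Dicer1. Fold changes of the 8 genes against WT are therefore given below with and without them, and those of the gene lists only with all 8 WT libraries. Libraries held 31.5 to 52.5 M reads, so that 3 reads were worth 0.0571 to 0.0954 RPM. The ESC genes Pou5f1 and Nanog were at a mean log2 RPM of 8.45 and 8.55 in WT, 8.45 and 7.91 in Dnmt1 KO, and 8.26 and 8.64 in Dicer/Dnmt1 KO.

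In the mouse build NCBIM37 the genes of the GATA factors lay at chr18:11052508-11085633 (Gata6, plus strand) and chr14:63817759-63890529 (Gata4, minus strand). Sox17 lay at chr1:4481009-4486494 on the minus strand, Sox7 at chr14:64562511-64569569 on the plus strand, and Foxa2 at chr2:147868613-147872705 on the minus strand. Pdgfra lay at chr5:75548316-75594229, Dab2 at chr15:6249788-6390712 and Lama1 at chr17:68046605-68171985, each on the plus strand. All 8 genes were protein coding, with 2 exons in the longest transcript of Sox7 and 63 in that of Lama1.

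Levels of different genes were compared per kilobase of the longest transcript (RPKM). In WT, Lama1, a chain of the basement membrane protein laminin, stood apart from the other members with 6.70 ± 1.69 RPKM (SD, n = 8). Dab2 followed with 1.24 ± 0.255 RPKM and Gata4 with 1.06 ± 0.310 RPKM. The order went on with Pdgfra (0.613 ± 0.235 RPKM), Gata6 (0.542 ± 0.234 RPKM), Sox7 (0.267 ± 0.0991 RPKM), Sox17 (0.262 ± 0.182 RPKM) and Foxa2 (0.0909 ± 0.0507 RPKM). From Gata4 to Foxa2, each gene overlapped the range of the gene above it. In Dnmt1 KO, Gata6 came after Lama1 and Dab2 with 2.26 ± 0.531 RPKM (n = 4), with a range that overlapped those of Dab2 and Gata4, while Sox7, Sox17 and Foxa2 remained the last of the order at 0.996, 0.774 and 0.577 RPKM. In Dicer/Dnmt1 KO, Sox7 had the lowest level of the set, 0.281 ± 0.1004 RPKM (n = 4), and its range lay apart from that of Foxa2 above it, at 0.493 ± 0.0896 RPKM.

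**Figure D1:**
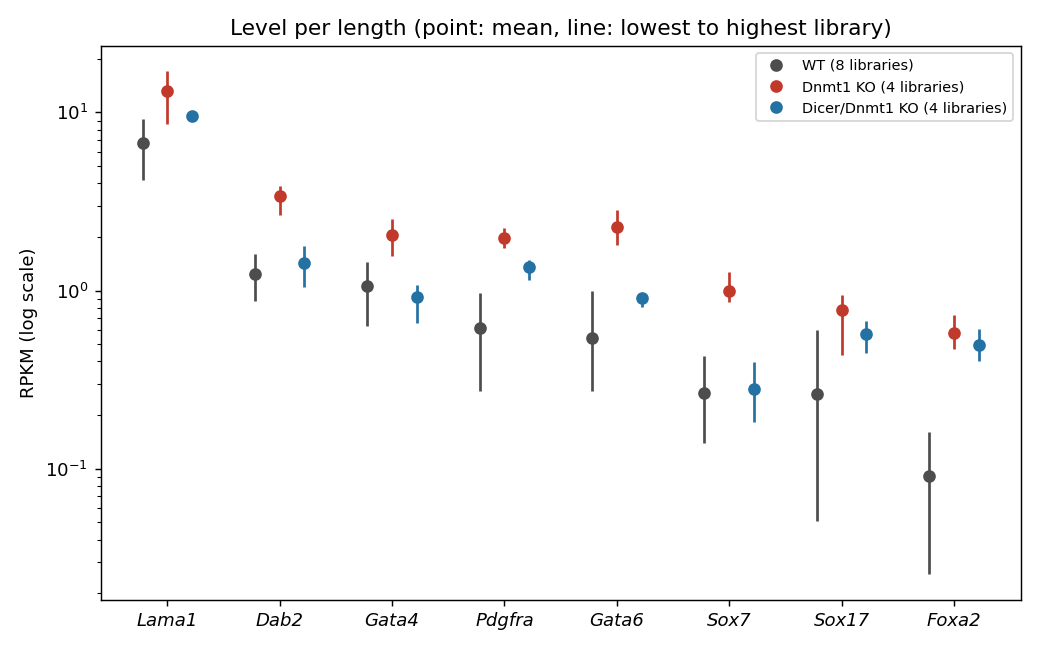
Level of each gene per length, in RPKM on a log axis, for WT (8 libraries), Dnmt1 KO (4) and Dicer/Dnmt1 KO (4). Points are means and lines run from the lowest to the highest library, with Lama1 above the other genes in each group and Foxa2 at 0.0909 RPKM in WT.

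Loss of Dnmt1 went with higher RNA of all 8 genes. They were chosen with earlier results of these data known, so the shares of all genes beside their counts are a description. The differences between means ran from 1.95-fold for Lama1 to 7.37-fold for Foxa2, with a median log2 fold change of 1.82 beside 0.04 over all 12892 tested genes. The adjusted p-value of limma was under 0.05 for 8 of 8 genes, each time in the direction of a rise, where 23.5% of the tested genes were called higher and 17.5% lower. For 6 of the 8 genes every Dnmt1 KO library was above every WT library, which held for 14.8% of the tested genes. Genes were tested if they were above 1 RPM in at least 4 libraries. Sox7, Sox17 and Foxa2 met this only with the help of the knockout libraries, since 2, 3 and 0 of the 8 WT libraries were above 1 RPM. A fit without the filter also called 8 of 8 higher, beside 17.3% of 21545 genes. With A and B of a number averaged, 7 of 8 were called higher, all but Sox17, beside 11% of genes called higher and 6.74% lower in that fit. For Sox7, Sox17 and Foxa2 an exact permutation test of log2 RPM is given in addition. It counts A and B of a number as separate units, though they were correlated (consensus correlation 0.667), so its p may be too small.

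Gata6, the factor that starts the primitive endoderm program, was at 0.868, 1.65 and 3.18 RPM in WT (lowest, median and highest). In Dnmt1 KO it was at 5.72, 5.85, 8.25 and 9.06 RPM, given here and below in the order 1A, 1B, 2A and 2B. The groups did not overlap, and the rise was 4.42-fold (log2 fold change 2.14, SE 0.26, limma adjusted p = 6.03e-06). Gata4, which acts after Gata6, was at 2.16, 3.83 and 4.92 RPM in WT and at 6.11, 5.34, 7.82 and 8.55 RPM in Dnmt1 KO. Again the groups did not overlap, and the rise was 1.97-fold (0.98, SE 0.22, adjusted p = 0.00171). With letter A or letter B libraries alone the adjusted p of Gata4 was 0.059 and 0.0609.

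Sox17, an endoderm factor of the SOX F family, was at 0.159, 0.705 and 1.88 RPM in WT and at 1.37, 2.96, 2.70 and 2.67 RPM in Dnmt1 KO. The library Dnmt1 KO 1A was low and the libraries labelled WT 4B and Dnmt1 KO 1A overlapped, and the rise was 3.62-fold (log2 fold change 1.86, SE 0.48, adjusted p = 0.00495, exact permutation p = 0.0141). With A and B of a number averaged, the adjusted p of Sox17 was 0.0528, and with letter A libraries alone it was 0.123. Sox7, of the same family, was at 0.461, 0.899 and 1.41 RPM in WT and at 2.86, 3.05, 3.05 and 4.18 RPM in Dnmt1 KO. Its groups lay apart, with a rise of 3.94-fold (1.98, SE 0.29, adjusted p = 3.63e-05, exact permutation p = 0.00202). That p is the smallest that 8 against 4 libraries can give when each library counts as a separate unit.

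Foxa2, a forkhead factor of visceral and definitive endoderm, had only 2 to 18 reads in a WT library, or 0.0542, 0.182 and 0.343 RPM. In Dnmt1 KO it was at 1.55, 1.01, 1.35 and 1.00 RPM, from 33 to 51 reads. Every knockout library was above every WT library, by 7.37-fold between the means of log2 RPM (log2 fold change 2.88, SE 0.42, adjusted p = 3.43e-05, exact permutation p = 0.00202). At such counts the size depends on how low values are treated, and with 1 RPM added to each value it was 0.90 on the log2 scale. In the same way the log2 fold change was 0.94 for Sox17 and 1.20 for Sox7, and after quantile normalization that of Foxa2 was 1.96.

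Pdgfra encodes the PDGF receptor alpha, which primitive endoderm uses for its survival and which fibroblasts also carry. It was at 1.79, 3.84 and 6.39 RPM in WT and at 11.7, 11.4, 14.8 and 14.0 RPM in Dnmt1 KO. The groups lay far apart, with a rise of 3.43-fold (log2 fold change 1.78, SE 0.25, adjusted p = 2.25e-05). Dab2, an endocytic adaptor needed for endoderm cells to take their place at the surface, was at 4.08, 5.57 and 7.51 RPM in WT and at 12.3, 16.3, 18.04 and 16.5 RPM in Dnmt1 KO. All 4 knockout libraries were above WT, and the rise was 2.76-fold (1.47, SE 0.17, adjusted p = 3.28e-06). Lama1 was at 39.6, 65.0 and 87.6 RPM in WT and at 98.2, 81.9, 162 and 162 RPM in Dnmt1 KO. Number 2 was high and number 1 lower, with 1B inside the WT range, and the rise was 1.95-fold (0.96, SE 0.20, adjusted p = 0.000973). With letter B libraries alone the adjusted p of Lama1 was 0.0785.

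**Figure D2:**
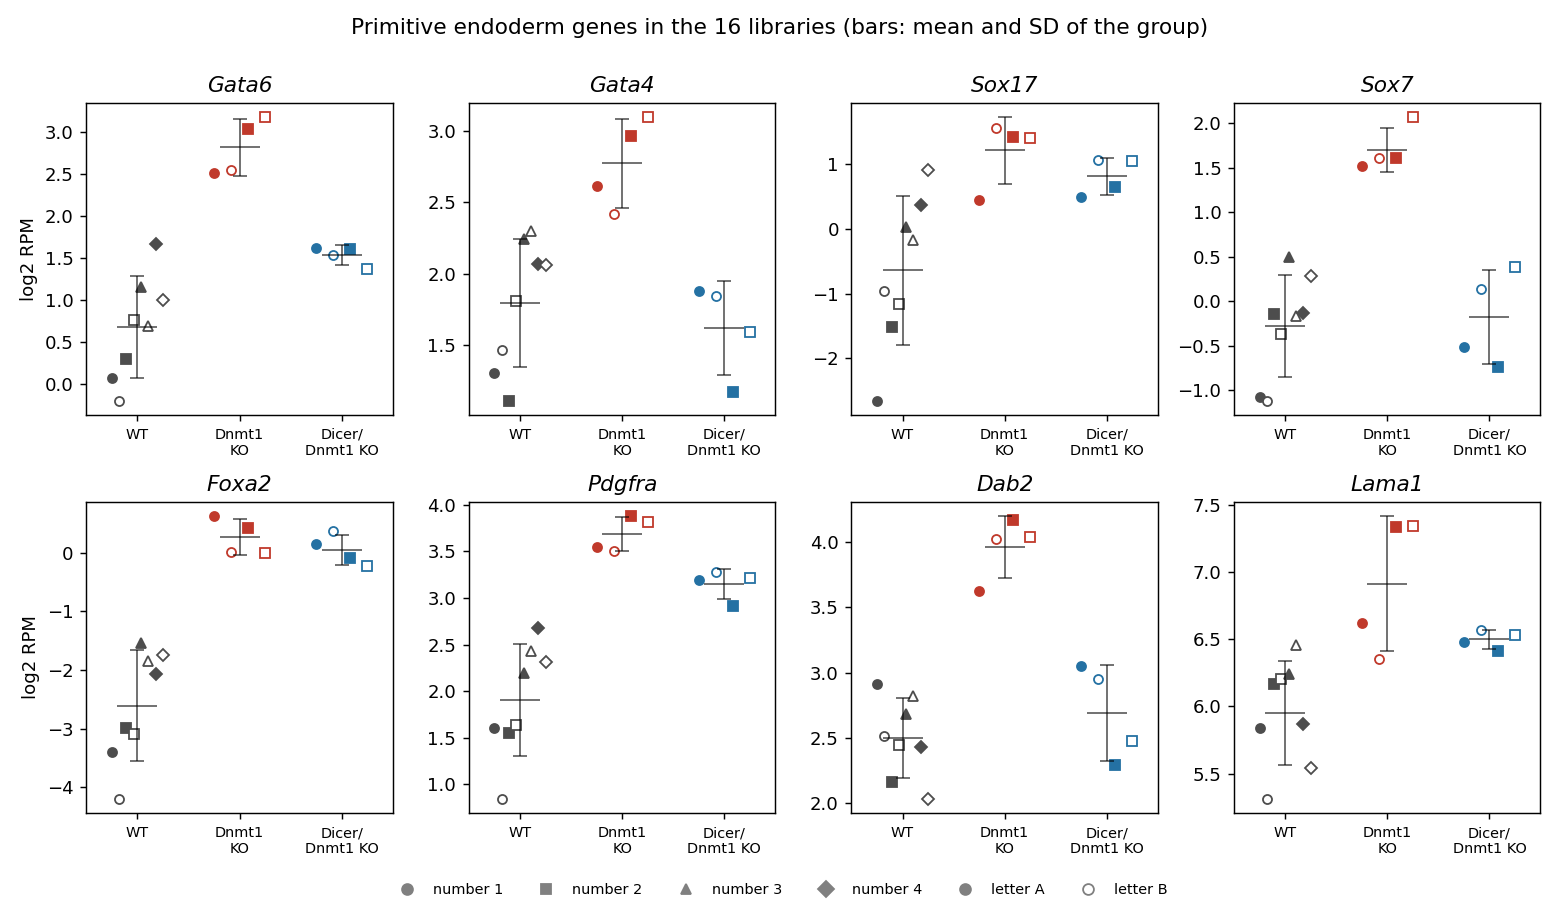
Level of each gene as log2 RPM in each of the 16 libraries, by group, with marker shapes for the replicate number, filled markers for letter A and open markers for letter B. Bars give the mean and SD of a group, and Dnmt1 KO lies above WT without overlap for Gata6, Gata4, Sox7, Foxa2, Pdgfra and Dab2.

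Without Dicer as well, the genes differed from WT to unequal extents. Foxa2, Sox17, Pdgfra, Gata6 and Lama1 were called higher than WT, while Gata4, Sox7 and Dab2 were not called in either direction. These were 5 of 8 genes higher and 0 lower, where 31.9% of the tested genes were called higher and 30.1% lower. Libraries of the groups did not overlap for Foxa2 and Pdgfra, beside 22.6% of the tested genes with every Dicer/Dnmt1 KO library above WT. The median log2 fold change of the 8 genes was 0.70, beside 0.02 over all tested genes. Without the filter 5 of 8 were again called higher, beside 23.8% of genes. With A and B of a number averaged, the calls were Foxa2 and Pdgfra, 2 of 8 higher, beside 21.6% of genes called higher and 18.2% lower in that fit.

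Foxa2 was at 1.11, 1.29, 0.941 and 0.858 RPM in Dicer/Dnmt1 KO, from 27 to 41 reads, which lay above the WT range and was 6.34-fold higher (log2 fold change 2.66, SE 0.42, adjusted p = 3.48e-05, exact permutation p = 0.00202). Pdgfra was at 9.18, 9.72, 7.53 and 9.28 RPM, also above every WT library and 2.37-fold higher (1.24, SE 0.25, adjusted p = 0.000346). Sox17 was at 1.40, 2.11, 1.57 and 2.07 RPM, overlapped the library labelled WT 4B, and was 2.74-fold higher (1.46, SE 0.48, adjusted p = 0.0141, exact permutation p = 0.0323). With 1 RPM added to each value the log2 fold changes were 0.78 for Foxa2 and 0.66 for Sox17, and after quantile normalization 1.70 and 1.00. Both SOX17 and FOXA2 also act in definitive endoderm, which forms at gastrulation.

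Gata6 was at 3.08, 2.89, 3.06 and 2.58 RPM in Dicer/Dnmt1 KO. With Lama1 it had the narrowest spread of log2 RPM in that group, and of the WT libraries only the one labelled WT 4A, at 3.18 RPM, was above its lowest library. The difference from WT was 1.81-fold (log2 fold change 0.85, SE 0.26, adjusted p = 0.00985). Lama1 was at 88.9, 95.1, 85.3 and 92.2 RPM, of which 1 library was below the highest WT library, and was 1.46-fold higher (0.54, SE 0.20, adjusted p = 0.0255). With the trend of the values with transcript length removed, the log2 fold change of Lama1 was 0.053 (adjusted p = 0.814), and without Dicer/Dnmt1 KO 1A, 1B or 2B its adjusted p was 0.0504, 0.0630 and 0.0549. After quantile normalization Gata6 was at 0.60 (adjusted p = 0.0611).

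Gata4 was at 3.67, 3.59, 2.25 and 3.02 RPM in Dicer/Dnmt1 KO, inside the WT range. Its log2 fold change was -0.18 with a 95% confidence interval of -0.64 to 0.29 (adjusted p = 0.497). Sox7 was at 0.702, 1.10, 0.601 and 1.30 RPM, again inside the WT range, with a log2 fold change of 0.10 and an interval of -0.51 to 0.70 (adjusted p = 0.785, exact permutation p = 0.780). For Sox7 both letter B libraries were above both letter A libraries. Dab2 was at 8.29, 7.74, 4.89 and 5.56 RPM, where number 1 was just above the highest WT library and number 2 inside the range. Its log2 fold change was 0.19 with an interval of -0.17 to 0.55 (adjusted p = 0.336).

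**Figure D3:**
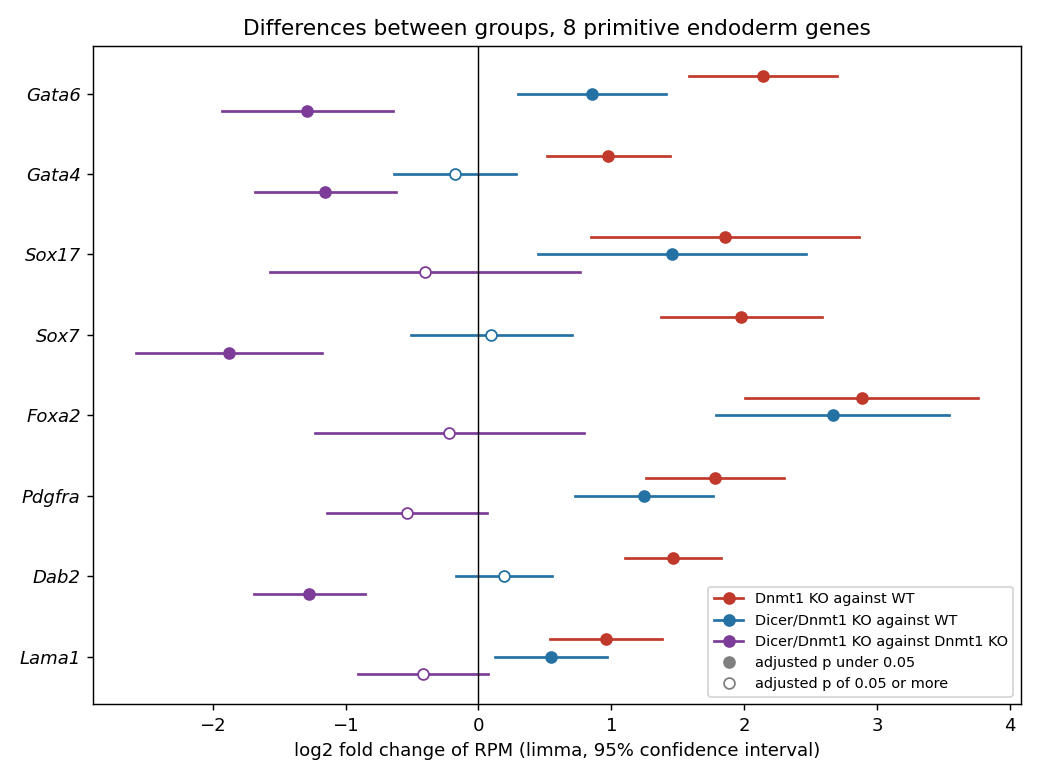
Log2 fold change of RPM for each gene in the 3 comparisons, with 95% confidence intervals from limma and filled points where the adjusted p was under 0.05. All 8 points are filled for Dnmt1 KO against WT, 5 for Dicer/Dnmt1 KO against WT and 4 for Dicer/Dnmt1 KO against Dnmt1 KO.

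The knockouts were then compared with each other, as groups labelled with and without Dicer on the Dnmt1 KO background. Clones and days after deletion were not given, so that Dicer status cannot be told apart from them. Gata6, Gata4, Sox7 and Dab2 were lower in Dicer/Dnmt1 KO than in Dnmt1 KO, and the difference did not pass the test for Sox17, Foxa2, Pdgfra and Lama1. These were 4 of 8 genes called lower and 0 higher, where 19.4% of the tested genes were called lower and 16.9% higher. For 5 of the 8, Pdgfra included, every Dicer/Dnmt1 KO library was below every Dnmt1 KO library, beside 22.3% of the tested genes. The median log2 fold change of the 8 genes was -0.84, beside -0.01 over all tested genes. With A and B averaged the calls were Sox7 and Dab2, 2 of 8 lower, beside 4.22% of genes called lower and 5.28% higher in that fit.

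Sox7 differed most, being 3.68-fold lower in Dicer/Dnmt1 KO (log2 fold change -1.88, SE 0.33, adjusted p = 0.00034), and its highest library there, at 1.30 RPM, was below the lowest Dnmt1 KO library, at 2.86 RPM. Gata6 was 2.44-fold lower (-1.29, SE 0.31, adjusted p = 0.00341), with 3.08 RPM as its highest and 5.72 RPM as the lowest library of the other group. Dab2 was 2.42-fold lower (-1.27, SE 0.20, adjusted p = 0.000106), and Gata4 was 2.22-fold lower (-1.15, SE 0.25, adjusted p = 0.00193). Neither gene overlapped between the knockouts. The log2 fold change of Pdgfra was -0.54 with an interval of -1.14 to 0.07 (adjusted p = 0.153). That of Lama1 was -0.42 (-0.90 to 0.07, adjusted p = 0.170), that of Sox17 -0.40 (-1.57 to 0.77, adjusted p = 0.598) and that of Foxa2 -0.22 (-1.23 to 0.80, adjusted p = 0.750). These intervals use the spread of all 3 groups. WT was the most uneven for Pdgfra, Sox17 and Foxa2 (for Pdgfra a SD of log2 RPM of 0.60 in WT, 0.19 without Dnmt1 and 0.16 without Dicer and Dnmt1). For Lama1 Dnmt1 KO was the most uneven, with a SD of 0.50 beside 0.39 in WT and 0.07 in Dicer/Dnmt1 KO. Fitted on the knockout libraries alone, Pdgfra was called lower (-0.54, interval -0.79 to -0.29, adjusted p = 0.00204), and the intervals were -0.80 to -0.03 for Lama1 (adjusted p = 0.071), -0.93 to 0.12 for Sox17 and -0.71 to 0.28 for Foxa2. With the trend of the values with transcript length removed, Lama1 was called lower as well (-0.74, adjusted p = 0.0103).

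The WT libraries were not alike in these genes. For Gata4, Sox17, Foxa2 and Pdgfra, 4 of the 8, each library of WT numbers 3 and 4 was above each library of numbers 1 and 2, which held for 16.4% of the 12892 tested genes. Sox17 had a mean log2 RPM of -1.57 ± 0.76 (SD, n = 4) in numbers 1 and 2 and of 0.29 ± 0.47 (n = 4) in numbers 3 and 4. For Foxa2 the means were -3.42 ± 0.55 and -1.80 ± 0.22, for Pdgfra 1.41 ± 0.38 and 2.41 ± 0.20, and for Gata4 1.42 ± 0.29 and 2.17 ± 0.12. Gata6 (0.23 ± 0.41 and 1.13 ± 0.41) and Sox7 (-0.68 ± 0.49 and 0.12 ± 0.32) had higher means in numbers 3 and 4 as well, with overlap. Dab2 (2.51 ± 0.31 and 2.49 ± 0.35) and Lama1 (5.88 ± 0.41 and 6.03 ± 0.40) had like means in both. Dnmt1 was low in number 4 but not in number 3, and the part of Dnmt1 level in these differences was not tested.

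Against WT numbers 3 and 4 alone, Dnmt1 KO was still called higher for 8 of 8 genes, beside 28.3% of all tested genes called higher and 21.8% lower, by log2 fold changes from 0.60 (Gata4) and 0.89 (Lama1) to 2.07 (Foxa2). For Sox17 this was 0.93 against numbers 3 and 4 and 2.79 against numbers 1 and 2. Dicer/Dnmt1 KO was higher than WT numbers 3 and 4 for Foxa2 (1.86, adjusted p = 9.01e-06) and Pdgfra (0.75, adjusted p = 9.54e-05) and lower for Gata4 (-0.55, adjusted p = 0.0107), or 2 of 8 higher and 1 lower, where 35.8% of the tested genes were called higher and 33% lower. Gata6 (0.40, adjusted p = 0.0804), Sox17 (0.52, adjusted p = 0.0959) and Lama1 (0.47, adjusted p = 0.0584) were then not called. Without the libraries labelled WT 4A and WT 4B, 8 of 8 genes stayed called higher in Dnmt1 KO (24.6% of all tested genes higher and 20.4% lower), with log2 fold changes of 2.36 for Gata6, 1.07 for Gata4, 2.28 for Sox17, 2.09 for Sox7, 3.12 for Foxa2, 1.98 for Pdgfra, 1.38 for Dab2 and 0.88 for Lama1. In Dicer/Dnmt1 KO 4 stayed called higher (30.9% of all tested genes higher and 30.3% lower), Foxa2 (2.90), Sox17 (1.88), Pdgfra (1.44) and Gata6 (1.07), while Lama1 (0.46) had an adjusted p of 0.0541.

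**Figure D4:**
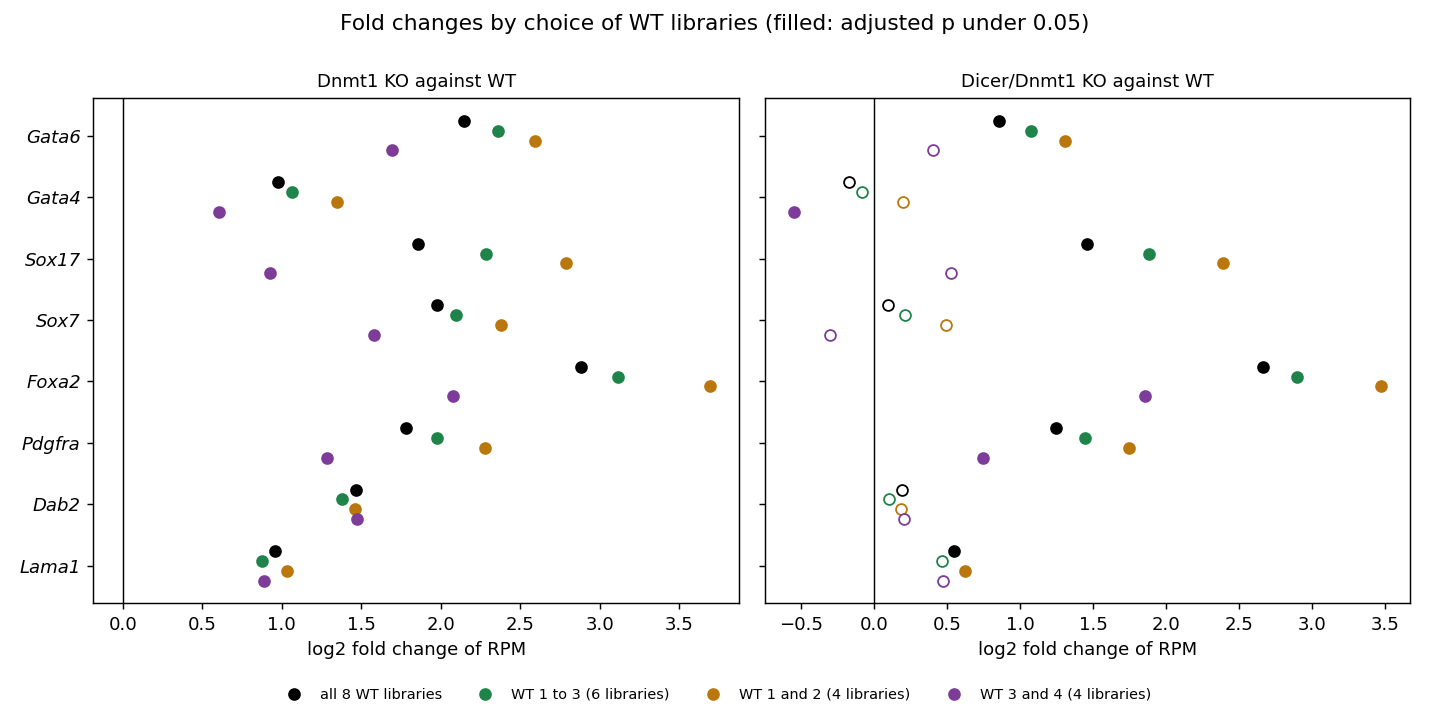
Log2 fold change of RPM of each gene against all 8 WT libraries, WT numbers 1 to 3, numbers 1 and 2, or numbers 3 and 4, for each knockout, with filled points where the adjusted p was under 0.05. Against WT numbers 3 and 4 the Dicer/Dnmt1 KO point of Gata4 is at -0.55 and those of Gata6, Sox17 and Lama1 are open, while the points of Dab2 lie close together.

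The members were correlated with each other over the 16 libraries, with Pearson's r of log2 RPM from 0.46 to 0.96 over their 28 pairs and a median of 0.76. These values hold the differences between groups. After the group means were taken off, r ran from -0.20 to 0.87 with a median of 0.595. The points share their libraries and, by number, pairs of similar libraries, so that the values are a description. Foxa2 and Pdgfra were the most alike pair of members, with r = 0.96.

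Of all tested genes, the 2 most like each member in pattern over the 16 libraries were named by their r. For Gata6 these were Zfp600 (0.96) and Fam169a (0.95), and for Gata4 they were Trmt6 (0.90) and Rhpn1 (0.89). Trmt6 (0.94) was also the gene most like Sox7, with F2rl1 (0.93) after it. Sox17 was most like Glrx (0.96) and Ttc30a1 (0.94). The nearest to Foxa2 were Plau (0.98), which encodes urokinase, and Col4a1 (0.97), a collagen IV chain of basement membranes. Pdgfra was closest to Fbp2 (0.97) and Ccno (0.97), and Dab2 to Myc (0.96) and Gm9781 (0.94). Lama1 was closest to Etaa1 (0.95) and Runx1 (0.95).

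Genes of the same pathway were read from lists of genes chosen by name, also with earlier results of these data known. Their values against WT came from all 8 WT libraries. The share of all tested genes to set beside the counts of each list was 23.5% higher and 17.5% lower in Dnmt1 KO. It was 31.9% higher and 30.1% lower in Dicer/Dnmt1 KO against WT, and 16.9% higher and 19.4% lower between the knockouts. No list was tested as a set. Of 18 partners and signals of primitive endoderm, 16 were tested, of which 9 were called higher and 1 lower in Dnmt1 KO (median of the log2 fold changes 0.28). The Dicer/Dnmt1 KO counts were 7 higher and 4 lower against WT (median 0.16) and 3 higher and 6 lower against Dnmt1 KO (median -0.05). Pdgfc, a ligand of the receptor that Pdgfra encodes, rose from a mean log2 RPM of 1.28 ± 0.40 (SD, n = 8) in WT to 3.37 ± 0.14 (n = 4) in Dnmt1 KO and 4.39 ± 0.11 (n = 4) in Dicer/Dnmt1 KO (limma adjusted p = 5.00e-08 and 1.46e-10). Etv4, a target of FGF signalling, was higher in Dnmt1 KO than in WT (log2 fold change 0.76, adjusted p = 0.00017). Fgf4, the ligand, named here after its values were seen, was lower in Dnmt1 KO than in WT without overlap (-0.64, adjusted p = 2.22e-05). It was not called in Dicer/Dnmt1 KO against WT (-0.19, adjusted p = 0.0778). In Dicer/Dnmt1 KO it was higher than in Dnmt1 KO, also without overlap (0.45, adjusted p = 0.00242). In Dnmt1 KO against WT Spry2 was at -0.17 (adjusted p = 0.15). Spry2 and Dusp6, feedback inhibitors of FGF and ERK signalling, were lower in Dicer/Dnmt1 KO than in Dnmt1 KO (-1.23 and -1.18, adjusted p = 2.15e-07 and 6.75e-08). Spry2 was also lower in Dicer/Dnmt1 KO than in WT (-1.39, adjusted p = 1.04e-09).

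Later endoderm genes differed among themselves. Of 26 visceral endoderm genes 14 were tested, with 5 higher and 0 lower in Dnmt1 KO (median 0.52), 5 higher and 6 lower in Dicer/Dnmt1 KO against WT (median -0.30), and 0 higher and 5 lower in Dicer/Dnmt1 KO against Dnmt1 KO (median -0.49). Apoc2 and Soat2, called higher in both knockouts, had a mean log2 RPM of -1.30 and -0.17, and may have passed the filter through them. Cubn, an endocytic receptor of visceral endoderm, rose by 2.29 on the log2 scale in Dnmt1 KO (SE 0.37, adjusted p = 0.000113) and was lower by -1.19 in Dicer/Dnmt1 KO against Dnmt1 KO (adjusted p = 0.0383). Apob, a lipoprotein component, rose in both knockouts (2.07 and 1.45, adjusted p = 1.95e-08 and 5.92e-07). Car4, a carbonic anhydrase, was lower in Dicer/Dnmt1 KO than in WT (-1.30, adjusted p = 1.03e-05) and than in Dnmt1 KO (-1.58, adjusted p = 2.45e-05).

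Of 20 genes of parietal endoderm and basement membrane 18 were tested, with 11 higher and 1 lower in Dnmt1 KO (median 0.51), 10 higher and 1 lower in Dicer/Dnmt1 KO against WT (median 0.59), and 2 higher and 1 lower between the knockouts (median 0.03). Srgn, which encodes the proteoglycan serglycin, and Col4a1 rose in Dnmt1 KO (1.48 and 1.30, adjusted p = 0.0236 and 3.06e-06). Nid1, which links laminin to collagen IV, and Col4a2 were higher in Dicer/Dnmt1 KO than in WT (1.52 and 1.35, adjusted p = 1.63e-08 and 6.88e-07). Between the knockouts Nid1 was higher in Dicer/Dnmt1 KO (1.17, adjusted p = 1.01e-05) and P4ha2, a collagen prolyl hydroxylase subunit, was lower (-0.64, adjusted p = 0.0126).

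A list of 12 epiblast and ESC factors was drawn up under the name of factors that oppose primitive endoderm. Such a role was not tested here and need not hold for every gene of the list, so the counts do not measure opposition. Of the 12 genes 11 were tested, with 0 higher and 4 lower in Dnmt1 KO (median -0.20). The counts were 2 higher (Prdm14 and Sall4) and 1 lower in Dicer/Dnmt1 KO against WT (median 0.0023). Between the knockouts they were 4 higher and 1 lower (median 0.29). Sox2, a core factor of pluripotency, was lower in Dnmt1 KO than in WT (-0.67, SE 0.11, adjusted p = 0.00018). Nanog, which represses Gata6, was higher in Dicer/Dnmt1 KO than in Dnmt1 KO (0.73, SE 0.13, adjusted p = 0.000365). Prdm14, a repressor of differentiation in ESCs, was higher in Dicer/Dnmt1 KO than in WT (1.33, adjusted p = 8.70e-06) and than in Dnmt1 KO (1.53, adjusted p = 3.55e-05). Tdgf1, the co-receptor of Nodal, was lower in Dicer/Dnmt1 KO than in WT (-0.96, adjusted p = 0.000198).

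Markers of other cell types that the cultures could hold moved with the groups too. Of 20 feeder fibroblast genes 16 were tested, with 10 higher and 1 lower in Dnmt1 KO (median 0.76), 14 higher and 1 lower in Dicer/Dnmt1 KO against WT (median 1.01), and 1 higher and 1 lower between the knockouts (median 0.22). Their summed level was 141 to 206 RPM in WT, 295 to 335 RPM in Dnmt1 KO and 281 to 420 RPM in Dicer/Dnmt1 KO, with none of the 20 at 0 in a whole group. Vim, the most abundant of them, is also expressed by ESCs. Acta2 and Fbn1 rose in Dnmt1 KO (1.29 and 1.24, adjusted p = 1.72e-05 and 4.50e-05), Col1a1 and Fbn1 in Dicer/Dnmt1 KO (1.72 and 1.35, adjusted p = 0.000113 and 7.89e-06), and Col6a1 was higher in Dicer/Dnmt1 KO than in Dnmt1 KO (1.06, adjusted p = 0.000645). The part of feeder RNA in the values of Pdgfra, Lama1 and the other members was not tested.

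Few genes of the remaining lists were tested. Of 10 mesendoderm and definitive endoderm genes 3 were tested, with 0 higher and 1 lower in Dnmt1 KO (median -1.03), 0 higher and 3 lower in Dicer/Dnmt1 KO against WT (median -1.23), and 0 higher and 1 lower between the knockouts (median -0.78). These were Cxcr4, Wnt3 and Fgf8, with a mean log2 RPM of 0.18, 0.41 and -1.14 over the 16 libraries. They may have passed the filter through WT, so their counts and medians are a description only. The median in Dnmt1 KO was the value of Fgf8, which was not called (adjusted p = 0.143). The summed level of the 10 genes was 4.54 to 8.94 RPM in WT, 3.13 to 4.32 RPM in Dnmt1 KO and 2.48 to 3.59 RPM in Dicer/Dnmt1 KO. Of the trophoblast genes 6 of 10 were tested, with 4 higher and 0 lower in Dnmt1 KO (median 1.34), the same counts in Dicer/Dnmt1 KO against WT (median 0.78), and 2 higher and 1 lower between the knockouts (median -0.16). The 4 called higher in Dnmt1 KO had a mean log2 RPM below 0 over the 16 libraries (Cdx2 -0.79, Gata2 -0.12, Ascl2 -0.37, Hand1 -0.67). Genes this low can pass the filter through the libraries where they are high, so the counts and medians are a description only. Their summed level was 10.7 to 14.7 RPM in WT, 16.7 to 21.9 RPM in Dnmt1 KO and 21.5 to 24.4 RPM in Dicer/Dnmt1 KO, with Tpbpa, a marker of the spongiotrophoblast, at 0 in all groups. Krt7, an epithelial keratin, was higher in Dicer/Dnmt1 KO than in WT (0.73, adjusted p = 9.43e-05) and than in Dnmt1 KO (0.60, adjusted p = 0.00415).

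Of 10 endothelial and cardiac genes 2 were tested, with 1 higher in Dnmt1 KO, 2 higher in Dicer/Dnmt1 KO against WT and 1 higher between the knockouts, and medians of 2.00, 2.26 and 0.27. These were Tek and Tie1, and Tie1 had a mean log2 RPM of only -1.77 over the 16 libraries. Tie1 was higher than WT in both knockouts (4.05 and 3.27), so that it may have passed the filter through them. Their summed level was 10.9 to 13.3 RPM in WT, 13.2 to 15.0 RPM in Dnmt1 KO and 25.2 to 28.6 RPM in Dicer/Dnmt1 KO. Tek, the angiopoietin receptor, was higher in Dicer/Dnmt1 KO than in WT (1.26, adjusted p = 6.74e-10) and than in Dnmt1 KO (1.32, adjusted p = 3.30e-08). Of the neuroectoderm genes 3 of 7 were tested, with 0 higher and 2 lower in Dnmt1 KO (median -0.60), 1 higher and 2 lower in Dicer/Dnmt1 KO against WT (median -0.36), and 2 higher and 0 lower between the knockouts (median 0.73). Their summed level was 49.7 to 97.7 RPM in WT, 36.4 to 43.7 RPM in Dnmt1 KO and 41.1 to 51.6 RPM in Dicer/Dnmt1 KO. Olig2, a factor of motor neuron and oligodendrocyte precursors, was lower in Dnmt1 KO than in WT (-1.08, adjusted p = 9.33e-07) and higher in Dicer/Dnmt1 KO than in Dnmt1 KO (0.73, adjusted p = 0.000397). The part of these cell types in the values of the primitive endoderm genes was not tested.

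**Figure D5:**
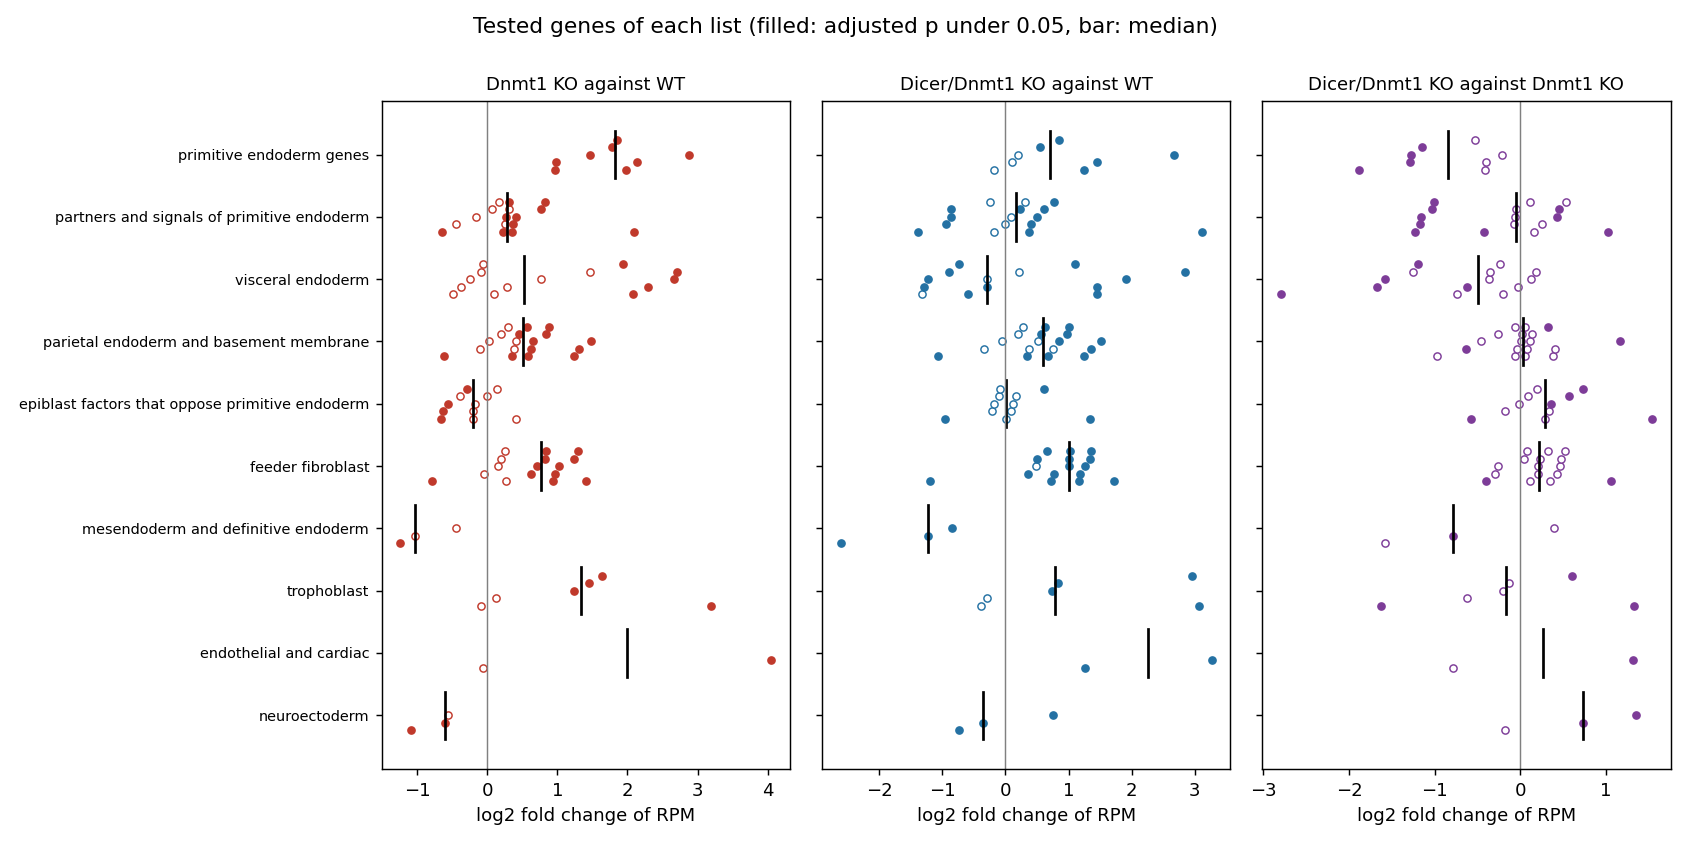
Log2 fold change of RPM of each tested gene of the primitive endoderm set and of the 9 gene lists in the 3 comparisons, with filled points where the adjusted p was under 0.05 and a bar at the median of a list. The bar of the primitive endoderm genes is at 1.82 for Dnmt1 KO against WT, 0.70 for Dicer/Dnmt1 KO against WT and -0.84 between the knockouts.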

How the data were processed

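RNA from 16 ESC libraries was grouped by the genotype in the labels. The authors trimmed reads with Trim Galore 0.3.5, aligned them to NCBIM37 with TopHat2 2.0.11, kept alignments above a mapping quality limit, quantified genes in SeqMonk and deposited log2 RPM, the log2 of reads scaled to 1 M reads of the library, with no pooling of libraries. The role of GRCm38, also named in the submitters' processing notes, is not given in the sources used here. The 35 other value columns of the table were not used. Whole reads were recovered from the deposited log2 values (tolerance 0.01 read, with a gene without reads written as 0.9 read) for 100% of values.

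Gene positions and lengths came from GENCODE M1 (NCBIM37), which held 26094 of the 26127 genes. Genes above 1 RPM in at least 4 of the 16 libraries were tested (12892). limma 3.58.1 in R 4.3.3 fitted 1 mean a group to log2 RPM with an intensity trend, and p-values were adjusted by Benjamini-Hochberg over all tested genes, with 0.05 as threshold. The recovered reads were tested with limma voom as an alternative, and DESeq2, which the study used, was not run. The fitting code was tested on simulated data. Exact permutation tests were two-sided and were added after the values of Sox7, Sox17 and Foxa2 were seen. The 8 genes and the lists were chosen with earlier results of these data known. Named genes were the 8 members, Dnmt1 and Dicer1, per list and comparison up to 2 called genes with the largest change, a mean log2 RPM of at least 1 and no overlap of groups, and the 2 genes most correlated with a member. Fgf4, Mmp2, Krt19 and genes given only to explain a count or a level were named outside this rule. Confidence intervals cover the spread between these libraries, and the level of 3 reads covers counting error only. Proteins were not analysed here.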

Additional observations from a re-analysis of the deposited data

Results flagged for a closer look

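Sox17 in the library Dnmt1 KO 1A stood far from the others of its group, at a log2 RPM of 0.45 beside 1.42 to 1.56 in the other 3 libraries. The gap was 0.866 of the range of the group, above Dixon's critical value of 0.829. It was the only such library in 24 groups of values (8 genes in 3 groups), where chance alone gives about 1 in 20 groups. The cause was not tested.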

How the results depend on the processing

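Calls changed with the WT libraries used and with whether libraries A and B of a number count as 1 or 2 replicates (consensus correlation 0.667). In Dicer/Dnmt1 KO against WT, Gata6 lost its call after quantile normalization. Lama1 lost its call there with the length trend removed or with some single libraries left out. Values also moved with the pseudocount, quantile normalization and the length trend. Low counts limit Foxa2, Sox17 and Sox7. With A and B averaged, letter A alone, letter B alone, or A and B as a correlated pair, the genes called were 2288, 1833, 1610 and 2723 in Dnmt1 KO against WT (5289 as reported). In the same order they were 5134, 4002, 4813 and 5755 in Dicer/Dnmt1 KO against WT (7985) and 1225, 951, 667 and 2109 between the knockouts (4682). Each of these fits tested 12892 genes. A change of at least 2-fold left 901, 1650 and 589. Members called in Dnmt1 KO against WT (8) were 7 averaged, 6 for letter A, 6 for letter B and 7 with correlated pairs, with calls lost for Sox17, Gata4 and Lama1. In Dicer/Dnmt1 KO against WT (5) they were 2 averaged, 2 for letter A, 3 for letter B, 2 with correlated pairs, 3 at 2-fold, and 3 against WT numbers 3 and 4. Between the knockouts (4) they were 2, 2 and 1 for averaged, letter A and letter B. The stricter filter, above 1 RPM in all 16 libraries, left 4 members to test and called 4, 2 and 2 of them. Of the 11193 genes it left, 4292, 6851 and 4260 were called.

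Directions turned only for values that were not called. In Dicer/Dnmt1 KO against WT, Sox7 was at -0.41 with letter A, -0.39 after quantile normalization and -0.30 against WT numbers 3 and 4, and with each library left out it ran from -0.091 to 0.281. Gata4 was at 0.20 against WT numbers 1 and 2, and Dab2 at -0.0023 with the length trend removed. Foxa2 between the knockouts was at 0.066 with letter B. The causes were not tested.

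Correlations of deviations between groups ran from -0.42 to 0.37 for libraries of the same number and letter. For different numbers they reached -0.44 (WT 1A with Dicer/Dnmt1 KO 2A) and 0.42 (WT 1A with Dnmt1 KO 2A). Such mixed values do not settle whether numbers shared by the groups pair the libraries. A replicate block gave Gata4 at 0.20 in Dicer/Dnmt1 KO against WT, since it drops WT numbers 3 and 4 from that contrast. Between the knockouts it called 6 members, adding Pdgfra and Lama1. The genes called there were 5864 with a block of number and letter and 6690 with a block of number, of 12892 tested. Pdgfra was also gained in the fit of the knockouts alone and Lama1 with the length trend removed, which lost Lama1 in Dicer/Dnmt1 KO against WT (0.053). Of the member values, 6 of 279 in Dnmt1 KO against WT, 20 of 279 in Dicer/Dnmt1 KO against WT and 7 of 252 between the knockouts lost their call. In the last 2 comparisons the totals include genes that had no call to lose. In Dicer/Dnmt1 KO against WT, Lama1 lost its call in 10 of 35 values, Gata6 in 6 of 34 and Sox17 in 4 of 35. Foxa2 and Pdgfra lost 0 there. Between the knockouts the losses were 3 of 32 for Gata4, 3 of 31 for Gata6, 1 of 31 for Sox7 and 0 of 32 for Dab2.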
